A study of Mus musculus with 8 samples.

Results

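The total change in chromatin accessibility from rest to combined stimulation was followed in bone marrow-derived macrophages, by setting cells given fenoterol and then LPS against unstimulated cells of the same mice. The comparison takes 4 of the 8 ATAC-seq libraries of the series, 2 with both stimuli and 2 unstimulated, and all 74207 peaks of the deposited table, of which 66786 were tested. The cells came from wild-type C57Bl/6 mice, numbered 1 and 2 in the labels, and each mouse gave 1 library to every group. Cells with both stimuli had 1 µM fenoterol for 15 min followed by 100 ng/mL LPS for 1 h, and unstimulated cells had neither. The remaining libraries, 2 with fenoterol alone for 15 min and 2 with LPS alone for 1 h, are used to place the change between its components. Because the agonist was followed by LPS only in the combined group, cells with both stimuli were collected longer after fenoterol than cells with fenoterol alone. Macrophages of this kind are grown from marrow precursors in culture; the cell identity was not checked here, because no gene annotation of the peaks' genome build, mm9, was used.

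LPS, a component of the outer membrane of Gram-negative bacteria, is sensed by Toll-like receptor 4 and leads to activation of NF-κB and of MAP kinases, whose target factors act at enhancers of inflammatory genes. Fenoterol activates the β2 adrenergic receptor, whose G protein stimulates adenylate cyclase, raises cAMP and so activates protein kinase A and factors such as CREB. In resting macrophages the lineage factor PU.1 holds many enhancers open, and inflammatory stimuli open further sites within the first hour. ATAC-seq reads out open DNA as sites where the Tn5 transposase can insert adapters.

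Accessibility is given as RPKM, reads normalised to the length of the peak and to the library's reads in peaks, then scaled between libraries. A rise common to all peaks would therefore not be seen, and in such bulk samples more cells with an open site and a more open site in each cell cannot be told apart. Reads in peaks came to 1426873 and 4040292 in the unstimulated libraries of mouse 1 and mouse 2, and to 3918319 and 3535300 in those with both stimuli. In the shallow library of mouse 1 at rest a median peak had 9 reads (exact 95% Poisson interval 4.12 to 17.1), and in the other 3 it had 26 to 28. Intervals cover counting error only. Peaks without a read appear to have been set to 1 read by the authors, so a level of 1 read is a floor. The 2 mice correlated across peaks at r = 0.863 in unstimulated cells and 0.905 with both stimuli (log2 of RPKM + 4).

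More peaks were called risen than fallen under combined stimulation, and the called rises were larger in log2 size than the falls. Of the tested peaks, 6842 rose (10.2%) and 4106 fell (6.15%), together 16.4%, by limma-trend at an adjusted p under 0.05 (n = 2 mice per group). Median accessibility of the risen peaks was 10.05 and 11.4 RPKM in the unstimulated libraries of mouse 1 and mouse 2 and 28.4 and 28.1 RPKM with both stimuli. Fallen peaks had medians of 37.2 and 34.3 RPKM at rest and of 20.5 and 20.2 RPKM with both. The risen peaks thus started low and the fallen ones started high, which is partly set by choosing them on these 4 libraries. Log2 changes, here and below, are of the scaled RPKM + 4 and understate the ratio of levels at low peaks. The median log2 change was 1.08 among risen peaks, of which 3963 (57.9%) changed at least 2-fold and 168 at least 4-fold. Among fallen peaks it was -0.70, with 615 (15.0%) at least 2-fold and 0 at least 4-fold. Over all tested peaks the median was -0.04. The median SE was 0.25 for risen and 0.18 for fallen peaks, so a typical rise had to be larger than a typical fall to be called. The part of this in the sizes of called changes was not tested. The order of the counts turned in 1 setting, voom on recovered reads with mouse 2 left out at rest, which called 2295 risen and 4036 fallen. The risen numbered 3183 with the combined library of mouse 1 left out and 3294 with that of mouse 2 left out. With all libraries thinned to the reads of the shallowest it was 2329, and 844 fell. The fallen number rested more on single libraries: leaving out an unstimulated library gave 2313 (mouse 1) and 8277 (mouse 2), and leaving out a combined one gave 1628 (mouse 1) and 1417 (mouse 2).

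The peaks that rose held a growing part of all reads in peaks. They took up 4.44% and 5.07% of reads at rest in mouse 1 and mouse 2, 4.93% and 5.58% with fenoterol, 9.18% and 9.45% with LPS, and 10.7% in each mouse with both. Those that fell went from 8.79% and 8.56% at rest through 8.09% and 7.97% with fenoterol and 6.13% and 5.96% with LPS to 5.39% and 5.34% with both. In neither set did the libraries of any group overlap with those of another, apart from fenoterol and unstimulated libraries in the risen set. The end points of these orders are those the peaks were chosen on. The libraries with 1 agent took no part in the contrast, although they entered the spread used to call peaks. Each step from rest still starts at libraries that chose the peaks, and the step from LPS to both ends at such libraries. The places of fenoterol and of LPS between rest and both can therefore be partly set by that choice. In peaks chosen in the other mouse, given below, the median fenoterol change had opposite signs in the 2 mice. The median LPS change there kept its direction in both.

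**Figure D1:**
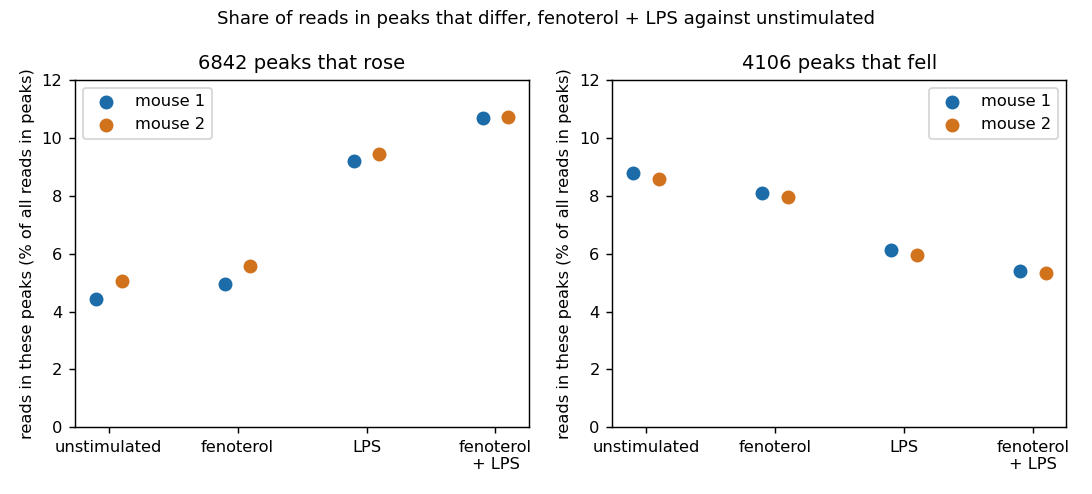
Reads in the 6842 risen peaks (left) and the 4106 fallen peaks (right) as a percentage of all reads in peaks (y axis), for each library by group (x axis), with 1 point per mouse. Risen peaks hold 4.44% and 5.07% of reads at rest and 10.7% with both stimuli, and the LPS libraries, at 9.18% and 9.45%, lie near the latter.

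Both mice took part in the change. Over all tested peaks, 31.9% were higher with both stimuli in both mice and 35.7% were lower, so that without a threshold slightly more peaks lay lower than higher, and at 26.3% and 29% the libraries of the 2 groups did not overlap, the combined ones lying above and below. At least 2-fold higher values in both mice were found at 2400 peaks (3.59% of those tested) and at least 2-fold lower values in both at 250 (0.374%), while 28 peaks went at least 2-fold in opposite ways. Across all tested peaks, which are not independent replicates, the changes of the 2 mice correlated with r = 0.579 (Spearman's rho = 0.507). Taken singly, mouse 1 had 6126 peaks at least 2-fold up and 1662 down, and mouse 2 had 3979 up and 1179 down. The larger numbers of mouse 1 go with its shallow unstimulated library, in which 2096 tested peaks stood at 1 read against 37 in that of mouse 2; the part of depth in this difference was not tested.

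**Figure D2:**
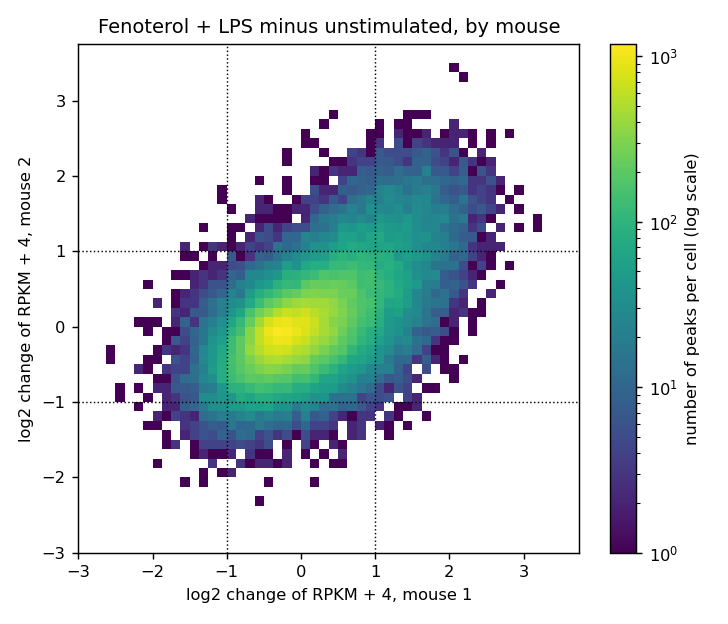
Log2 change of RPKM + 4 from unstimulated to fenoterol + LPS in mouse 1 (x axis) and mouse 2 (y axis) over 66786 tested peaks, with colour for the number of peaks per cell on a log scale and dotted lines at 2-fold. The cloud extends to the upper right, where 2400 peaks are at least 2-fold higher in both mice, against 250 at the lower left.

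Peaks chosen in 1 mouse were then measured in the other, which frees the size of the combined change from errors of the choosing libraries. The choice was still made on the change with both stimuli, so its place beyond LPS alone can be partly set by the choice. The 6126 peaks gained at least 2-fold in mouse 1 had medians in mouse 2 of 10.6 RPKM at rest, 11.4 after fenoterol, 17.4 after LPS and 20.8 after both. Of them, 5377 (87.8%) were higher with both stimuli than at rest in mouse 2, where 48.0% of all tested peaks were, and 39.2% were again at least 2-fold higher, beside 5.96% of all tested. In the reverse direction, the 3979 peaks gained in mouse 2 had medians in mouse 1 of 8.50, 7.31, 18.6 and 23.2 RPKM in the same order, and 96.3% were higher with both stimuli, beside 48.2% of all tested peaks. In each mouse the combined level lay above that with LPS alone and that with fenoterol alone lay near rest, slightly above in mouse 2 and below in mouse 1. Expressed as log2 changes from rest, mouse 2 showed medians of 0.80 with both stimuli, 0.56 with LPS and 0.07 with fenoterol, the 3 sharing 1 unstimulated library. For mouse 1 these medians were 1.15, 0.93 and -0.15.

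Lost regions behaved alike with the sign turned. The 1662 peaks lost at least 2-fold in mouse 1 had medians in mouse 2 of 17.6 RPKM at rest, 17.0 with fenoterol, 13.3 with LPS and 12.1 with both, and 84.1% were lower with both than at rest, beside 51.96% of all tested peaks. The 1179 peaks lost in mouse 2 had medians in mouse 1 of 17.9, 18.4, 12.6 and 11.2 RPKM, with 80.2% lower, beside 51.8% of all. The median log2 change with both stimuli, measured in the mouse that did not choose the peaks, was -0.50 and -0.57. In the mice that chose them it was -1.17 and -1.13.

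**Figure D3:**
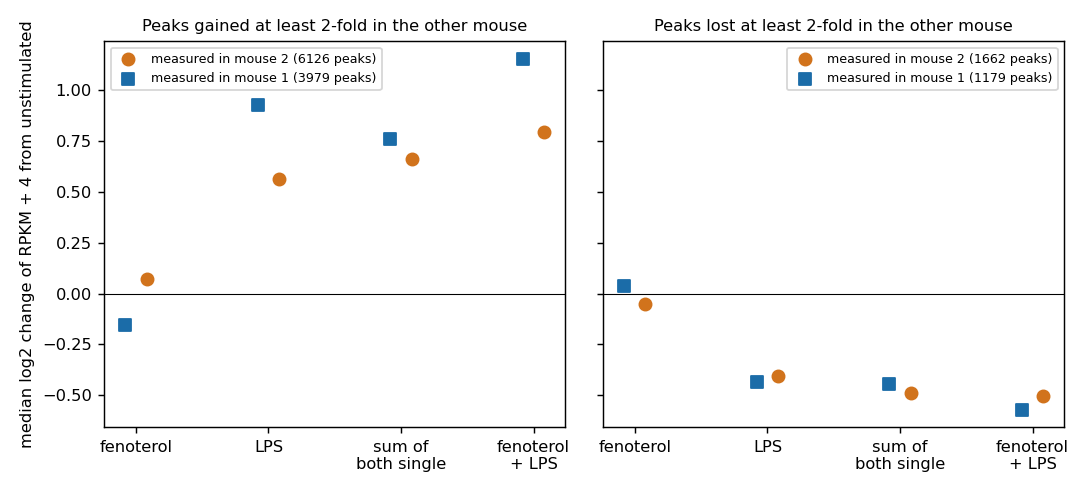
Median log2 change of RPKM + 4 from unstimulated (y axis) with fenoterol, with LPS, for the sum of these single changes in a peak, and with both stimuli (x axis), for peaks gained (left) or lost (right) at least 2-fold in the other mouse. With both stimuli the gained peaks changed by 0.80 in mouse 2 and 1.15 in mouse 1, above the values with LPS alone of 0.56 and 0.93. The peaks were chosen on the combined change, so its place beyond LPS alone can be partly set by that choice.

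Libraries outside the contrast gave a further reading of the called peaks. LPS libraries were set against fenoterol libraries, which share no library with fenoterol + LPS against unstimulated, although the spread of each peak comes from all 8. By limma-trend this contrast gave 4184 peaks higher with LPS (6.26%) and 1624 lower (2.43%), together 8.7%. Among the 6842 risen peaks, 3186 (46.6%) were called higher with LPS than with fenoterol, and 5809 (84.9%) were higher in both mice, beside 31.6% of all tested peaks. At 5540 of them (81.0%) both LPS libraries lay above both fenoterol libraries, beside 25.5% of all. Among the 4106 fallen peaks, 768 (18.7%) were called lower and 3312 (80.7%) were lower in both mice, beside 34.7% of all. Both LPS libraries lay below both fenoterol ones at 3022 of them (73.6%), beside 27.4% of all. The median log2 difference between LPS and fenoterol was 0.71 for risen, -0.35 for fallen and -0.02 for all tested peaks. With 1 LPS library left out 1994 (mouse 1) or 1601 (mouse 2) peaks were higher and 667 or 395 lower. With 1 fenoterol library left out 1932 (mouse 1) were higher and 304 (mouse 1) or 796 (mouse 2) lower, and with 1 unstimulated library left out 2932 or 2917 were lower.

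The other comparisons of these groups share libraries with the combined change, and their counts are given beside it. LPS against unstimulated, which shares the unstimulated libraries, gave 4363 higher (6.53%) and 2363 lower peaks (3.54%), together 10.1%. Fenoterol against unstimulated, with the same shared libraries, gave 4 higher (0.00599%) and 1 lower (0.0015%), together 0.00749%. Combined stimulation against fenoterol gave 6300 higher (9.43%) and 2882 lower (4.32%), together 13.7%. Combined stimulation against LPS gave 0 peaks in either direction (0%) by limma-trend, with 4447 at an unadjusted p under 0.05 and a smallest adjusted p of 0.163, while voom called 368 higher and 34 lower. Where combined libraries are placed above or below LPS libraries here, the values are therefore a description, and no difference between them passed at any single peak by limma-trend. In the risen peaks the median log2 change from rest was 0.82 with LPS, 0.10 with fenoterol and 1.08 with both, and in the fallen peaks it was -0.52, -0.17 and -0.70. Both combined libraries lay above all 6 other libraries at 3447 of the risen peaks (50.4%), beside 9.55% of all tested peaks, and below all 6 at 1881 of the fallen peaks (45.8%), beside 8.04% of all. These last medians and counts use libraries that chose the peaks and are a description. For peaks chosen in the other mouse, the median log2 change with fenoterol was 0.07 (gained) and -0.05 (lost) in mouse 2. In mouse 1 it was -0.15 and 0.04.

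At 4 risen peaks the LPS libraries were instead called below the fenoterol libraries; these were picked out after their values were seen. At peak41795 on chromosome 2 (148227923 to 148228411), accessibility was 29.1 and 30.5 RPKM at rest in mouse 1 and mouse 2, 55.3 and 43.7 with fenoterol, 35.9 and 28.3 with LPS, and 50.2 and 48.6 with both. The fenoterol and the combined libraries were all above the other 4, which overlapped with each other. At peak5463 on chromosome 10 (7933685 to 7934163) the values in the same order were 14.1 and 20.6, 32.8 and 33.3, 15.4 and 13.6, and 25.9 and 32.1 RPKM. Values of 14.5 and 18.7, 30.5 and 31.2, 16.5 and 19.7, and 31.9 and 25.7 RPKM were found at peak67352 on chromosome 8 (109553993 to 109554199). At both sites the fenoterol and combined libraries again lay above the other 4. The last of the 4, peak18538 on chromosome 13 (43869505 to 43870028), had 8.56 and 17.0, 34.8 and 29.96, 16.2 and 14.5, and 33.8 and 20.8 RPKM. Their log2 changes from rest to both stimuli were 0.64 to 0.91, with adjusted p from 0.00463 to 0.0286 by limma-trend, and none of the 4 passed for fenoterol against unstimulated (adjusted p = 0.184 to 0.319). The calls depended on the setting: of 19 alternatives, that at peak41795 was lost in 3, at peak18538 in 4, at peak67352 in 5 and at peak5463 in 7. All 4 were lost without the mean trend, with reads thinned and without the library of mouse 1 with both stimuli; the last gave adjusted p of 0.0533 at peak41795, 0.25 at peak18538, 0.204 at peak67352 and 0.0649 at peak5463. Leaving out mouse 1 at rest gave 0.152 at peak18538, 0.107 at peak67352 and 0.221 at peak5463, and leaving out mouse 2 with both stimuli gave 0.259 at peak5463.

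A single fallen peak went against its set in the same way. At peak22436 on chromosome 14 (63764295 to 63764497), accessibility was 48.0 and 38.1 RPKM at rest, 7.77 and 15.3 with fenoterol, 29.4 and 30.8 with LPS, and 28.8 and 13.8 with both. Its lowest libraries were therefore those with fenoterol and that of mouse 2 with both. The change from rest to both was -0.95 on the log2 scale (adjusted p = 0.0118 by limma-trend), and that from rest to fenoterol was -1.64 (adjusted p = 0.0257). Of 19 alternatives 3 lost the combined call: omission of mouse 1 at rest (adjusted p = 0.0867), omission of mouse 2 with both stimuli (0.253) and the fit with no mean trend.

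The peaks with the highest rises had low levels at rest. The peak with the highest log2 change, peak23363 on chromosome 14 (103457007 to 103457218), had 10.6 and 5.69 RPKM at rest in mouse 1 and mouse 2 and 58.7 and 100.4 RPKM with both stimuli. Its fenoterol values of 2.97 and 13.4 RPKM lay around those at rest, and its LPS values of 80.5 and 95.01 RPKM lay between the combined ones. The rise was 6.80-fold on the RPKM + 4 scale (log2 change 2.76, SE 0.30, adjusted p = 6.24e-06 by limma-trend). Its neighbour peak23362 (103456180 to 103456905) went from 14.4 and 13.6 to 68.0 and 104 RPKM. The pair lies in a dense stretch in which 10 of the 19 other tested peaks within 50 kb of peak23363 also rose and 0 fell.

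At peak10975 on chromosome 11 (54767546 to 54767901) accessibility was 6.31 and 2.71 RPKM at rest, 4.42 and 4.34 with fenoterol, 39.8 and 41.2 with LPS, and 42.0 and 63.6 with both, a 6.71-fold rise (adjusted p = 2.04e-06 by limma-trend). Here 8 of the 10 other tested peaks within 50 kb rose. By contrast peak27246 on chromosome 16 (15984293 to 15984766) stood alone, with 0 of 3 neighbours risen. It went from 1.58 RPKM, which is the 1-read floor, and 2.54 RPKM to 35.3 and 35.9 RPKM. The change with the smallest adjusted p, 8.5e-08 by limma-trend, was at peak15219 on chromosome 12 (56588293 to 56589469), from 6.98 and 8.17 RPKM at rest and 8.80 and 8.52 RPKM with fenoterol to 62.1 and 59.4 RPKM with LPS and 61.2 and 67.1 RPKM with both. In all these regions the LPS libraries stood with the combined ones, far above the other 4.

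Both unstimulated values of peak44757 on chromosome 3 (83705585 to 83705891) were at the 1-read floor, 2.44 and 0.785 RPKM. Fenoterol gave 6.15 and 5.88 RPKM, LPS 16.6 and 15.1 RPKM, and both stimuli 28.1 and 25.5 RPKM. The 4 groups did not overlap and stood in this order. With 3 reads assumed in each unstimulated library, the combined level was 5.54-fold higher, counting error not included. The remaining named risen peaks, chosen for their log2 change, were peak69178 on chromosome 9, peak47058 on chromosome 3 and peak28506 on chromosome 16, with rises of 5.33- to 5.51-fold. Those chosen for their gain in RPKM included peak13600 on chromosome 11 (113591207 to 113591681), the largest gain, from 18.9 and 13.2 RPKM to 95.4 and 84.7 RPKM, and peak41516 on chromosome 2 (140672449 to 140672927), from 29.7 and 13.1 to 94.1 and 83.4 RPKM. With LPS alone these 2 stood at 76.4 and 70.3 RPKM and at 74.0 and 72.5 RPKM, below both combined libraries. Calls at the 11 named risen peaks were kept in all 19 alternatives.

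**Figure D4:**
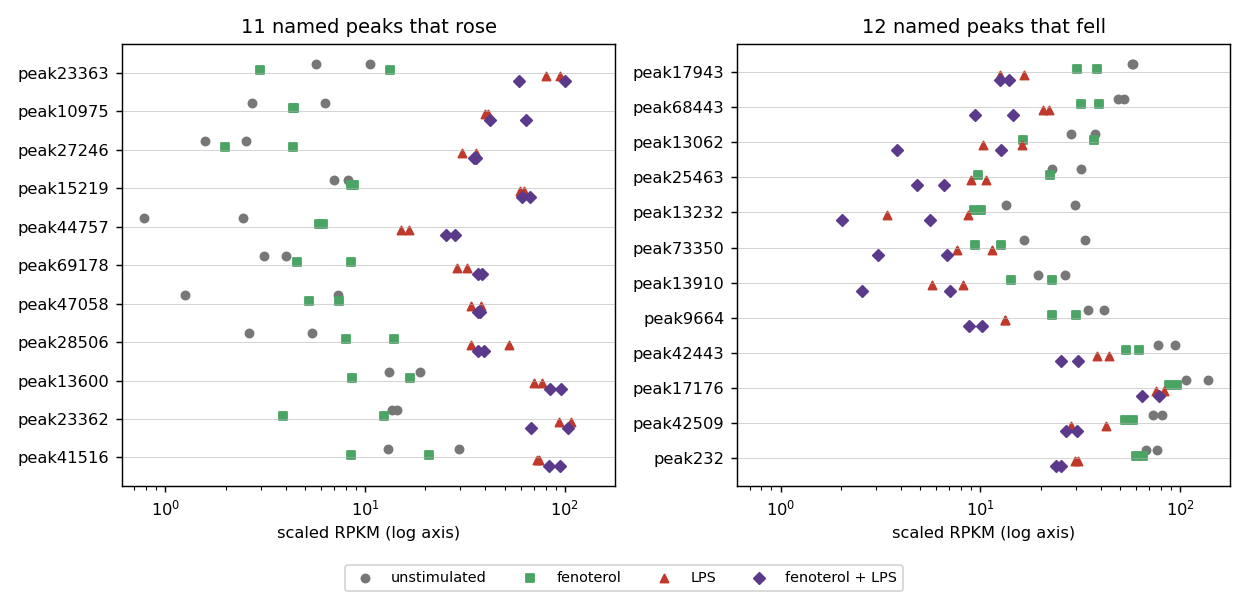
Scaled RPKM in each of the 8 libraries (x axis, log scale) for the 11 named risen peaks (left) and the 12 named fallen peaks (right), with 1 row per peak, a symbol and colour per group, and 2 points per group, 1 for each mouse. On the left the LPS and combined libraries lie above the others, as at peak15219 with 59.4 to 67.1 RPKM against 6.98 to 8.80 RPKM.

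Falls at the named peaks were smaller on the log2 scale than the rises. The largest by log2 of RPKM + 4 was at peak17943 on chromosome 13 (24908220 to 24909667), a broad peak with 57.8 and 57.6 RPKM at rest, 30.4 and 38.5 with fenoterol, 16.6 and 12.5 with LPS, and 12.6 and 13.9 with both. It fell 3.58-fold (log2 change -1.84, SE 0.18, adjusted p = 2.14e-06 by limma-trend). On chromosome 8, peak68443 (130975748 to 130976251) went from 49.0 and 52.1 RPKM at rest through 31.8 and 39.3 with fenoterol and 21.9 and 20.5 with LPS to 14.6 and 9.42 with both, a 3.45-fold fall (adjusted p = 3.59e-06). Its 4 groups did not overlap. The same order without overlap was seen at peak42443 on chromosome 2 (163054718 to 163055267), which had 93.8 and 77.5, 62.3 and 53.3, 43.8 and 38.5, and 30.8 and 25.4 RPKM.

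Of the remaining named falls, some were chosen for their log2 change and some for their loss in RPKM. At peak9664 on chromosome 11 (4912189 to 4912761) accessibility went from 41.8 and 34.4 to 10.2 and 8.77 RPKM, and at peak232 on chromosome 1 (16632007 to 16632741) from 67.1 and 76.6 to 25.5 and 23.9 RPKM. The peak42509 region on chromosome 2 (164266605 to 164267102) fell from 81.1 and 73.5 to 26.9 and 30.3 RPKM while 9 of its 16 neighbours within 50 kb rose and 0 fell. Opposite changes thus lay side by side there. The highest level at rest among the named peaks was at peak17176 on chromosome 12 (118798810 to 118799443), with 138 and 107 RPKM against 78.6 and 64.3 RPKM with both. Of the 12 named fallen peaks, 9 kept their call in every alternative in which they were tested. At peak17176 the call went with mouse 2 with both stimuli left out (adjusted p = 0.119) and with reads thinned (0.0541). At peak13232 on chromosome 11 it went with mouse 1 left out at rest (0.146) or with both stimuli (0.0896) and with reads thinned (0.133). At peak73350 on chromosome X it went with mouse 1 left out at rest (0.0615) and with reads thinned (0.23). By ratio, the unstimulated mice differed most, among the named fallen peaks, at these last 2, with 29.9 against 13.5 RPKM and 33.2 against 16.5 RPKM.

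Changes were unevenly spread over kinds of peaks. Peaks were grouped by their level in the fenoterol libraries, which the contrast does not use, although the filter on low values takes the mean of all 8 libraries and so keeps low fenoterol peaks that are high elsewhere. Of them, 18.2% of the lowest of 3 equal classes (up to 14.5 RPKM) rose and 1.03% fell, whereas 4.55% of the highest class (above 25.3 RPKM) rose and 12.6% fell. With no filter the shares were 20.8% and 0.841% in the lowest class and 4.91% and 12.6% in the highest. The deposited peaks can themselves include sites called from other groups, since how libraries were pooled is not given, and this was not tested. Of the narrowest peaks, up to 200 bp, 8.25% rose and 3.60% fell. In the second widest class, up to 1000 bp, the shares were 11.1% and 7.91%. Peaks wider than 1000 bp changed least often in the upward direction, with 106 of 3205 (3.31%) risen and 137 (4.27%) fallen, although they held the most reads, a median of 88 in the shallowest library against 3 in the narrowest class. Over all tested peaks 10.2% rose and 6.15% fell.

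Changed peaks also lay close to each other. Of peaks with no other peak within 10 kb, 6.61% rose and 3.60% fell, and of those with 4 or more such neighbours 17.5% rose and 11.7% fell. A risen peak had another risen peak within 10 kb in 32.2% of cases, against 14.5% for all tested peaks and 11.8% for fallen ones. A fallen peak had another fallen one within 10 kb in 25.1%, against 9.81% of all tested and 7.44% of risen peaks. Denser stretches also had higher levels, with a median at rest of 25.5 RPKM for 4 or more neighbours and 15.5 RPKM for none, and the part of level in these shares was not tested.

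**Figure D5:**
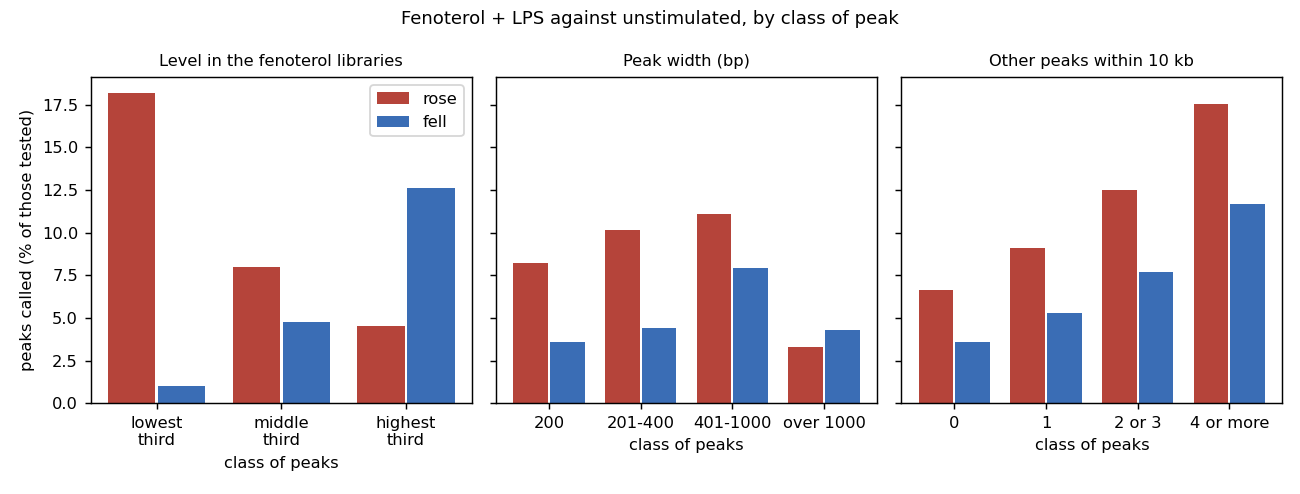
Peaks that rose (red) or fell (blue) as a percentage of the peaks tested in a class (y axis), for 3 equal classes of the level in the fenoterol libraries, classes of peak width and the number of other peaks within 10 kb (x axes). The share that rose goes from 18.2% in the lowest class to 4.55% in the highest, and from 6.61% without neighbours to 17.5% with 4 or more.

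Some risen peaks formed runs of consecutive tested peaks that all rose, although 4459 runs held a single peak. Run lengths were not set against those expected from the larger number of risen than fallen peaks. There were 2 runs of 8 peaks, 2 of 7, 8 of 6 and 19 of 5, whereas the longest runs of fallen peaks numbered 5 peaks and there were 6 of these. One run of 8 covered 40.8 kb on chromosome 4 (102257223 to 102298056). The summed reads of its peaks, normalised to reads in peaks (RPM), were 167 and 143 at rest, 204 and 200.6 with fenoterol, 283 and 267 with LPS, and 298 and 316 with both. The other run of 8 was on chromosome 16 (84585249 to 84627803), with sums of 119 and 111, 101 and 108, 255 and 259, and 255 and 269 in the same order. In the first run the fenoterol libraries lay above rest, and in the second they lay below it. A run of 7 on chromosome 17 (35335631 to 35357097) had sums of 140 and 110 at rest, 77.2 and 98.1 with fenoterol, 349 and 358 with LPS, and 284 and 331 with both, so that both combined libraries stayed below those with LPS. The other run of 7, on chromosome 11 (54747662 to 54776837), held peak10975 and went from 79.1 and 86.7 at rest to 170 and 187 with both, with 156 and 160 under LPS. All peaks of these 4 runs were higher in mean log2 with LPS than with fenoterol. Among the runs of 5 that fell, that on chromosome 18 (53404901 to 53415376) went from 104 and 106 at rest to 66.4 and 65.5 with both, and that on chromosome 2 (156895075 to 156905384) from 131 and 114 to 83.1 and 81.1.

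Fixed 100-kb windows, summed over their peaks, showed the change at the scale of loci. Of 6843 windows with at least 5 peaks, 903 were higher (13.2%) and 1004 lower (14.7%) with both stimuli by limma-trend, together 27.9%; on the values as deposited the numbers were 1110 and 879, so that neither direction can be called the more frequent. Median log2 changes were 0.46 and -0.35, and 33 windows were at least 2-fold higher and 0 at least 2-fold lower. The window with the smallest p lay on chromosome 13 from 63800001 to 63900000, with summed RPM of 39.6 and 43.2 at rest, 54.0 and 56.2 with fenoterol, 97.6 and 94.3 with LPS, and 114 and 108 with both (2.65-fold, log2 change 1.40, SE 0.09, adjusted p = 4.52e-07). Its 4 groups did not overlap, and 4 of its 5 tested peaks rose. On chromosome 2, the window from 126100001 to 126200000 went from 38.1 and 41.3 at rest and 36.1 and 35.2 with fenoterol to 83.2 and 82.4 with LPS and 95.5 and 113 with both (2.58-fold). The window on chromosome 16 from 84600001 to 84700000, which overlaps the run of 8 peaks, rose 2.30-fold.

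Windows that fell did so by less. That on chromosome 7 from 87200001 to 87300000 went from 178 and 172 at rest and 141 and 150 with fenoterol to 97.3 and 109 with LPS and 97.5 and 103 with both (1.75-fold, adjusted p = 1.9e-05 by limma-trend). On chromosome 2, the window from 159900001 to 160000000 went from 79.1 and 78.1 at rest through 63.7 and 61.1 with fenoterol and 55.2 and 54.7 with LPS to 43.2 and 42.1 with both (1.82-fold). A window on chromosome 8 from 130500001 to 130600000 had 71.6 and 65.6 at rest, 72.8 and 62.2 with fenoterol, 47.5 and 45.8 with LPS, and 35.4 and 37.4 with both (1.86-fold). In the last 2 both combined libraries were below both LPS libraries. The calls at all 6 windows were kept under the 12 alternatives run for them. With 1 combined library left out 453 (mouse 1) or 478 (mouse 2) windows were higher and 288 or 336 lower, and with mouse 2 left out at rest 1996 were lower.

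Whether the combined change differed from the sum of the single changes was tested as the interaction of fenoterol and LPS on the log2 scale. Cells with both stimuli were collected longer after fenoterol than cells with fenoterol alone. The test therefore cannot separate an interaction from a change of the fenoterol effect over that time. This holds for every departure from the sum given here and below. By limma-trend no peak passed (0%, smallest adjusted p = 0.262), with 4225 peaks (6.33%) at an unadjusted p under 0.05. Voom on recovered reads called 1 peak above and 3 below the sum. The median 95% interval of a peak, not adjusted over peaks, reached 0.69 to either side on the log2 scale. Departures smaller than this were not detectable at most peaks. Larger ones did not pass the adjusted threshold either, such as that at peak65389 (interaction 1.66, adjusted p = 0.262 by limma-trend). The median interaction was 0.12 over the risen, -0.01 over the fallen and 0.02 over all tested peaks. For peaks gained in the other mouse the combined change exceeded the sum by a median of 0.12 in mouse 2 and 0.37 in mouse 1, where the medians over all tested peaks were 0.00 and 0.04. For peaks lost in the other mouse the median departure from the sum was -0.06 in mouse 2 and -0.18 in mouse 1. Both sets were chosen on the combined change and not on the single ones. Departures of the chosen sign can therefore be partly set by that choice. The values of mouse 1 also rest on its shallow unstimulated library, whose part was not tested. With the unstimulated library of mouse 2 left out, which leaves the shallow library alone and assumed to vary like the other groups, 142 peaks passed above and 136 below the sum.

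The interaction with the smallest p above the sum was at peak65389 on chromosome 8 (28373038 to 28373244). Accessibility there was 25.4 and 24.5 RPKM at rest, 13.7 and 8.73 with fenoterol, 41.2 and 28.9 with LPS, and 68.7 and 51.4 with both. Fenoterol alone thus gave the lowest and both stimuli the highest libraries (interaction 1.66, SE 0.27, adjusted p = 0.262 by limma-trend). With the mouse as a block, the replicate numbers being animals, this peak was the 1 call of the interaction (adjusted p = 0.0345). Its change from rest to both was 2.19-fold (adjusted p = 4.53e-04). Next came peak44989 on chromosome 3, with 27.8 ± 3.61 RPKM at rest, 15.96 ± 4.52 after fenoterol, 23.9 ± 3.91 after LPS and 42.8 ± 3.61 after both (SD, n = 2), and peak49278 on chromosome 4, where 34.4 ± 5.65 RPKM with both was close to the 32.0 ± 7.06 RPKM at rest while either agent alone gave less, 19.3 ± 3.87 and 16.9 ± 2.71 RPKM.

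Below the sum stood peak33855 on chromosome 18 (56893474 to 56893894), with 14.2 and 21.2 RPKM at rest, 58.3 and 48.3 with fenoterol, 39.1 and 40.6 with LPS, and 43.9 and 39.8 with both. Either agent alone gave about the combined level or more. At peak54196 on chromosome 5 (106147045 to 106147777) the values were 28.5 and 36.1, 81.0 and 70.5, 35.6 and 31.1, and 35.2 and 31.2 RPKM, so that fenoterol libraries alone stood high and the change from rest to both was 0.04 (SE 0.15). Its interaction was -1.14 (SE 0.21, adjusted p = 0.269 by limma-trend; 0.0206 by voom). At peak2254 on chromosome 1 levels were 15.3 ± 0.322 RPKM at rest, 30.8 ± 1.13 after fenoterol, 23.4 ± 0.86 after LPS and 13.8 ± 3.58 after both (SD, n = 2). The fit without the unstimulated library of mouse 2 leaves the shallow library alone at rest. Its interactions were 1.69 at peak65389, 1.56 at peak44989, 1.70 at peak49278, -1.58 at peak33855, -1.29 at peak54196 and -1.51 at peak2254. No interaction peak passed with any other library left out.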

How the data were processed

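RPKM values of every peak in every library were computed by the authors and deposited. Cutadapt, Bowtie2, MACS2, HOMER and the build mm9 are named, per the submitters' processing notes; not given in the sources used here are versions, duplicate removal, any Tn5 shift and how libraries were pooled to call peaks. RPKM times peak length gave whole multiples of 1 read (100% within 0.01), from which reads were recovered. Values were divided by median-ratio size factors (0.940 to 1.04), and log2(value + 4) was used. Peaks in the lowest 10% of mean RPKM (7421, under 9.62 RPKM) were not tested. limma 3.58.1 in R 4.3.3 (limma-trend, Benjamini-Hochberg adjustment, threshold 0.05) was fitted to 4 group means over all 8 libraries, with 4 residual degrees of freedom and a shared spread worth 16.4, which outweighs that between animals. p-values rest on 2 mice per group.

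Alternatives changed the scaling (none or quantile), the pseudocount (1 or 16), the filter (none or 25%), the trend (none), the block (mouse) and the libraries fitted (only those compared); others were voom on recovered reads, reads thinned to 1426873 and each library left out. Voom with single libraries left out, level classes with no filter, and voom and the block for combined stimulation against LPS were added after seeing the data. Fits were tested on simulated data.

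Named peaks were the 8 with the largest log2 change and the 4 with the largest RPKM difference in each direction among called peaks that moved the same way in both mice, the 3 with the smallest interaction p in each direction, and likewise 3 windows. Members and rules were chosen with earlier results of these data known. Same-numbered libraries come from 1 mouse per the labels; mouse differences correlated across groups at 0.0223 to 0.0713. Gene lists, cell markers and motifs were not used, for want of a reference of build mm9 here.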

Additional observations from a re-analysis of the deposited data

How the results depend on the processing

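For fenoterol + LPS against unstimulated, 6842 risen peaks became 2329 with reads thinned to equal depth, and 4106 fallen peaks became 844 with reads thinned, 2120 without the mean trend and 2727 with only the libraries of the groups compared. Leaving out single libraries, by limma-trend or voom, gave 2295 to 9075 risen and 1417 to 8277 fallen peaks. With mouse 2 left out at rest, risen and fallen peaks numbered 9075 and 8277 by limma-trend. By voom they numbered 2295 and 4036, the only setting run with more fallen than risen. With the combined library of mouse 1 or mouse 2 left out, risen peaks numbered 3183 or 3294 by limma-trend. With the same libraries left out, fallen peaks numbered 2126 or 2387 by voom. Under the other alternatives both counts stayed within 1.5 times. Of the 6842 risen peaks, 6169 were called by voom (7331 in all), and of the 4106 fallen peaks 3519 (4927 in all). The replicate block gave 7254 risen peaks, 4684 fallen peaks, 1109 higher and 1443 lower windows, and 1 peak above the sum for the interaction of fenoterol and LPS; it moved no count by over 1.5 times except that of the interaction, and among single peaks and windows it changed only the call at peak65389. Voom gave 1 and 3 interaction peaks, and omissions 0 to 142 above and 0 to 136 below. LPS against fenoterol gave 1556 higher and 358 lower peaks with reads thinned, 697 lower without the mean trend, 2816 lower with only the libraries compared and 3204 lower by voom; omissions gave 1601 to 5740 higher and 304 to 2932 lower. With at least 1 peak a window, 1519 windows were higher; omissions gave 453 to 1006 higher and 288 to 1996 lower windows. At least 2-fold changes in both mice, 2400 up, 250 down and 28 in opposite ways, became 5960, 2319 and 500 at 1.5-fold, 3442, 610 and 132 with a pseudocount of 1, and 367, 8 and 0 with 16. The cause of these shifts was not tested. No value changed sign. Depth limits the unstimulated library of mouse 1 most, with 9 reads at the median peak.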

Other observations

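The combined change was spread over the chromosomes. On chromosome Y 0 of 32 tested peaks rose or fell. Elsewhere chromosome X had the smallest parts, 6.93% risen and 4.25% fallen, and the largest were 11.6% risen on chromosomes 10, 16 and 18 and 7.27% fallen on chromosome 15. The median log2 rise was 1.03 to 1.11 on every chromosome with risen peaks.

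Among the 6842 risen peaks, 12 had both unstimulated libraries at the 1-read floor. With 3 reads assumed in each unstimulated library, their combined level was 2.64- to 5.54-fold higher. A level of 1 read can be a real read or one set by the authors. Counting error was not included, so these values are not strict bounds. After peak44757 the highest values were at peak72532 on chromosome X (11701650 to 11701983), 4.79-fold, and at peak69346 on chromosome 9 (41364247 to 41364577), 4.55-fold. With these 12 at their values for 3 reads the median log2 change of the risen peaks stayed at 1.08.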
